A study of Homo sapiens with 9 samples.

Results

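The 56 genes described here drive the cell division cycle and the copying of DNA. Members were all probe sets whose only gene symbol in the platform's annotation is 1 of these genes, which gave 129 probe sets of the 54613 tested, with at least 1 for each gene. A probe set is a group of short oligonucleotides that reads a stretch of a transcript, and most of the genes had several, up to 7 for CDK6. RNA came from Hec50, an established human endometrial cancer cell line, on 9 Affymetrix arrays of 1 colour, 3 in each of 3 groups. The groups were mock transfected cells, cells given a scrambled negative control RNA, and cells given a miR-200c mimic, both RNAs at 60 nM for 48 hours. No dose or time is labelled for mock, and no other allele or agent is named. All groups are 1 line in culture. Whether the replicates of a group were separate cultures is not labelled, and the p-values therefore speak of the spread among these arrays, part of which may be technical.

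Division is driven by cyclin-dependent kinases. D-type cyclins with CDK4 and CDK6, then cyclin E with CDK2, phosphorylate the RB protein and free E2F factors, which switch on genes for origin licensing and DNA synthesis. CDK1 with cyclins A and B drives mitosis, the CDC25 phosphatases remove the brake that WEE1 places on the kinases, and CDKN proteins inhibit them. The miR-200 family is abundant in epithelial cells and lowers the repressors ZEB1 and ZEB2, which hold down the adhesion gene CDH1. The study looked for genes that miR-200c controls in an aggressive cancer, and the comparisons below ask it of the division machinery.

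The added RNA defines the experiment, so the mature miR-200c is shown with its relatives, 5′ to 3′ as RefSeq gives them, with the seed (bases 2 to 8, the part that pairs with targets) in capitals.
hsa-miR-200c-3p: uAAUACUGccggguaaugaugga
hsa-miR-200b-3p: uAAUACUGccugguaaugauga
hsa-miR-429: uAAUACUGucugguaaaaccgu
hsa-miR-200a-3p: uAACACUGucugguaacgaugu
hsa-miR-141-3p: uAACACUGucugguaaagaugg
miR-200c-3p, miR-200b-3p and miR-429 share the seed AAUACUG, while miR-200a-3p and miR-141-3p share AACACUG. The strands of the mimic itself are not printed in the labels.

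The deposited values behave as log2 expression with the median of each probe set over the 9 arrays subtracted, so 0 is the middle array and no absolute level is shown. No source used here states the log base. A coarse class of level was read from the rounding that single precision storage leaves: the log2 level of the lowest array was 8 or more, 4 to 8, or below 4. By this class 82 member probe sets were at 8 or more (63.6%, against 26.8% of all), 39 at 4 to 8 and 5 below 4, and 3 could not be placed. Between replicate arrays the SD of the differences was 0.131 to 0.182 over all probe sets and 0.102 to 0.145 over members. As a check of the labels, CDH1 rose by 3.26 with the mimic against the scrambled control on 201131_s_at, and ZEB1 fell on 3 of 4 probe sets, by 1.59 on 210875_s_at. The epithelial markers EPCAM, KRT8 and KRT18 had probe sets at a level of 8 or more, as did PAX8 and the fibroblast collagen gene COL1A1. Every probe set of the hormone receptor PGR, the leukocyte gene PTPRC, the endothelial genes CDH5 and KDR and the fibroblast gene LUM was below 4, whereas LAPTM5, CD3E and CD14 of leukocytes, VWF of endothelium and PDGFRB of fibroblasts were at 4 to 8, as were some of PECAM1 and DCN. Against the scrambled control, calls by list were 3 higher and 4 lower of 24 for epithelium and carcinoma, 0 higher and 1 lower of 9 for leukocytes, 0 higher and 0 lower of 9 for endothelium and 0 higher and 0 lower of 15 for fibroblasts (2 and 1 of the last lists at an unadjusted p under 0.05 in limma). Against mock they were 4 higher and 7 lower of 24, 0 higher and 2 lower of 9, 0 higher and 0 lower of 9 (1 unadjusted) and 2 higher and 3 lower of 15. Of all probe sets, 8.66% were called against the scrambled control and 12.1% against mock. LAPTM5 fell by 0.26 on 201721_s_at against the scrambled control and by 0.45 against mock. COL1A1 fell on 3 of 5 probe sets against mock, by up to 0.73, and on as many in the scrambled control against mock, by up to 0.57. DCN and LUM rose against mock on 1 probe set each, by 0.20 and 0.26. PAX8 fell on 4 of 8 probe sets against the scrambled control, by up to 0.62, and on 5 in the scrambled control against mock. EPCAM, KRT8 and KRT18 were called higher against the scrambled control, where the largest log2 change of the epithelial list was 1.06. Against mock EPCAM, KRT18 and ESR1 were called higher (largest log2 change 1.19) and PAX8 lower. The part of these markers in the results was not tested. The 3′ minus 5′ value of the ACTB control probe sets, a measure of RNA quality, was -0.18 ± 0.03 for mock, 0.10 ± 0.04 for the scrambled control and 0.02 ± 0.08 for the mimic (mean ± SD, n = 3 arrays each). Mock arrays lay apart in it. The same measure on GAPDH was 0.027 ± 0.035 for mock, 0.007 ± 0.023 for the scrambled control and -0.015 ± 0.035 for the mimic. There the groups overlapped. The values are centred, so only differences between arrays can be read from them, not a 3′ to 5′ ratio. The part of RNA quality in the results was not tested. In bulk RNA, fewer cells of a type and less RNA per cell cannot be told apart.

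The cell cycle genes did not move as a block with the mimic. A call is an adjusted p under 0.05 in limma, with Benjamini-Hochberg adjustment over all probe sets tested. Against the scrambled control, 11 member probe sets of 9 genes were called higher and 10 of 9 genes lower, and 108 did not pass. Called members made up 16.3%, against 8.66% of all probe sets (4.52% higher and 4.15% lower). Among probe sets at a level of 8 or more, the shares were 15.9% of members and 15.8% of all. There 6 members were higher and 7 lower, where all probe sets stood at 7.57% and 8.19%. The median log2 change was 0.05 for members and -0.01 for all. Of the members called, 1 changed by at least 1.5-fold, that of CDC25B. Of the 108 that did not pass, 105 had a 95% interval that lay within 1.5-fold either way. For 80 of them it lay within a log2 change of 0.3 either way, so changes of the size of many calls stay possible for the rest.

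**Figure D1:**
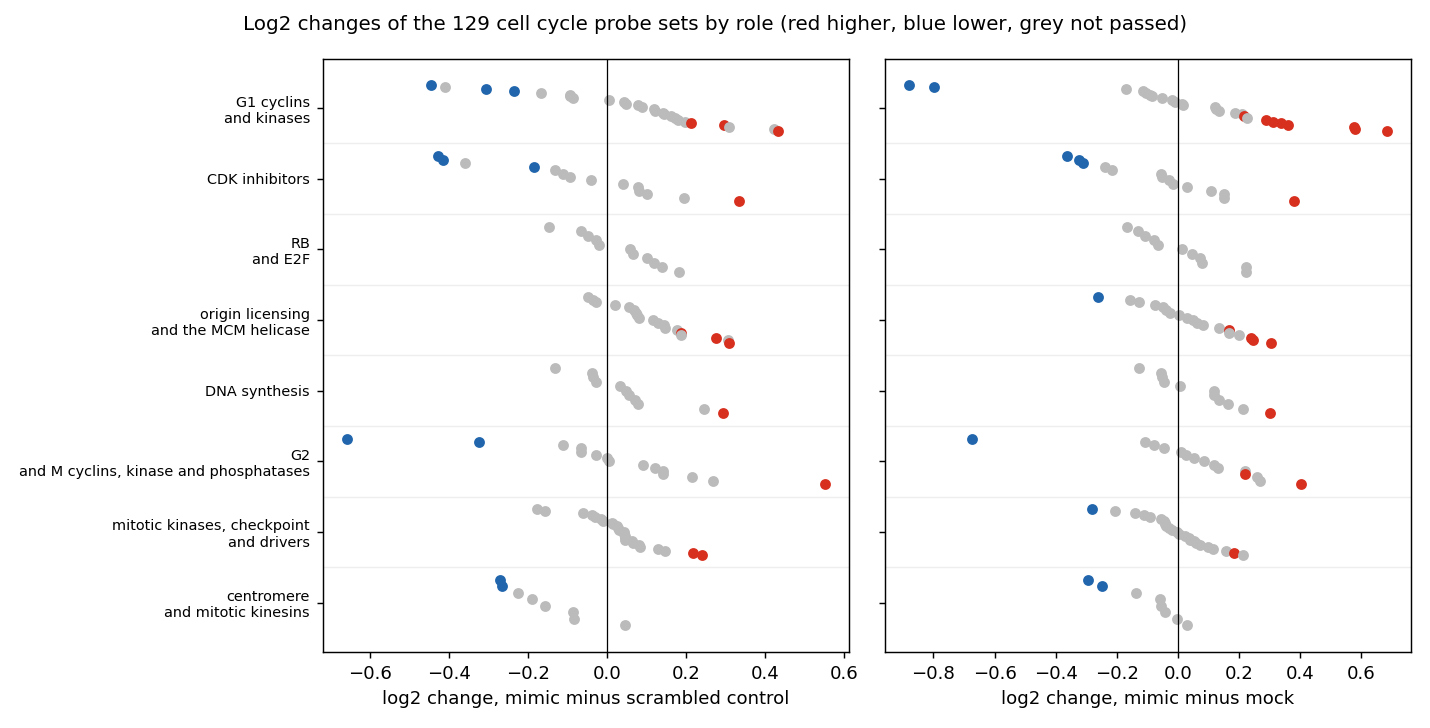
Each point is 1 of the 129 member probe sets, placed by its role and its log2 change, mimic minus scrambled control in one panel and mimic minus mock in the other, with called probe sets coloured by direction. Against the scrambled control 11 were higher and 10 lower. RB and the E2F factors held 0 calls on 11 probe sets in both panels, where 8.66% and 12.1% of all probe sets were called.

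Against mock, 17 member probe sets were called higher and 10 lower, 20.9% in all, against 12.1% of all probe sets (5.07% higher and 6.98% lower). At a level of 8 or more the shares were 19.5% of members and 21.6% of all. There, 11 members were higher and 5 lower, while of all probe sets at that level 8.21% were higher and 13.4% lower. Between scrambled control and mock 2 member probe sets were higher and 4 lower (4.65%, against 4.07% of all, 1.23% higher and 2.84% lower). At a level of 8 or more 2 members were higher and 3 lower (6.1%, against 8.37% of all, 2.48% higher and 5.89% lower). The 3 comparisons share arrays, so their values stand side by side and are not independent.

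**Figure D2:**
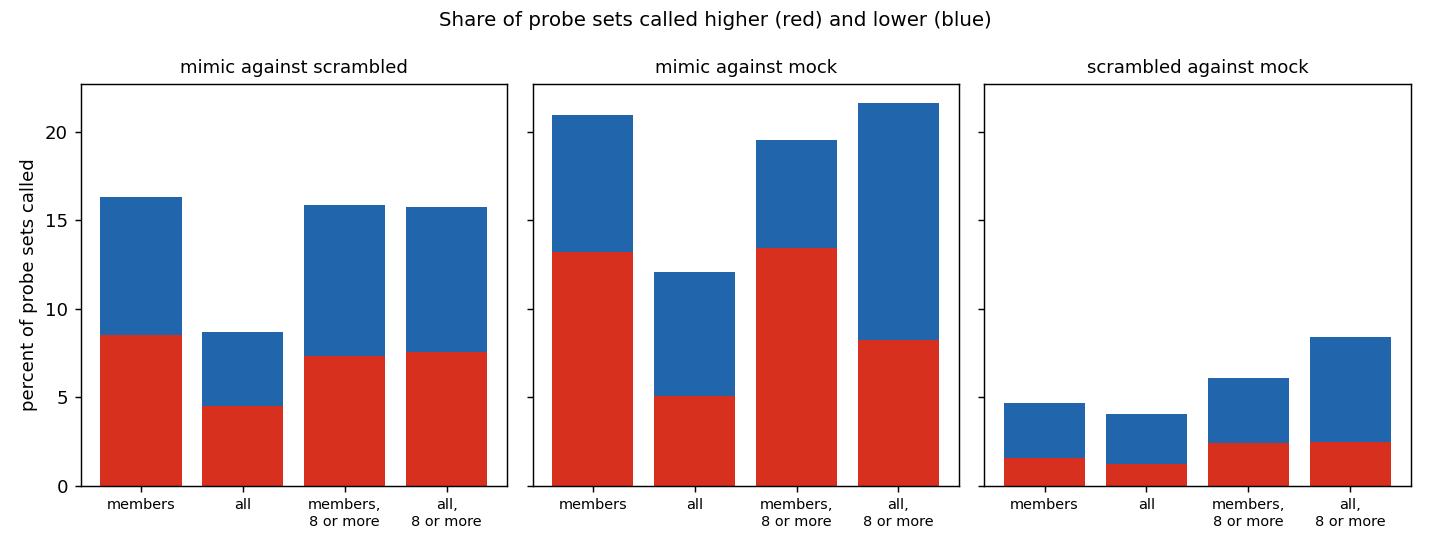
Bars give the percent of probe sets called higher and lower in each comparison, for members and for all probe sets, over every level and at a level of 8 or more. For mimic against scrambled control the shares at that level were 15.9% of members and 15.8% of all.

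Among G1 cyclins and their kinases, with CDC25A, which commit a cell to division, 3 of 26 probe sets were higher and 3 lower with the mimic against the scrambled control, and 8 and 2 against mock. Called probe sets made up 23.1% and 38.5%, against 8.66% and 12.1% of all probe sets. At a level of 8 or more, 15.8% and 21.6% of all probe sets were called. The roles were not split by level. CDK2, the kinase of cyclins E and A, was lower. Its probe set 204252_at stood at 0.42, 0.29 and 0.31 in the mock arrays, 0.00, -0.11 and 0.08 in the scrambled and -0.53, -0.45 and -0.39 in the mimic arrays. The 3 groups did not overlap, with mock highest and mimic lowest. CDK2 fell by 0.45 on the log2 scale against the scrambled control (1.36-fold, SE 0.067, adjusted p = 0.00207) and by 0.80 against mock (1.74-fold, adjusted p = 4.96e-05). Both calls held in all 17 alternatives tried. The scrambled control was itself lower than mock by 0.35 (adjusted p = 0.0203), a call that ended on omission of mock replicate 1 or 2 or scrambled replicate 1 or 2 (adjusted p = 0.0557 to 0.075). Probe set 211804_s_at stood at 0.32, 0.58 and 0.27 in the mock arrays, 0.00, -0.37 and 0.12 in the scrambled and -0.45, -0.46 and -0.58 in the mimic arrays, with the mimic arrays below all 6 others. It fell by 0.88 against mock (adjusted p = 0.000999), while its log2 change against the scrambled control was -0.41 (adjusted p = 0.0645, and 0.00882 without scrambled replicate 2). The third probe set, 211803_at, had log2 changes of -0.09 and -0.09 in these comparisons.

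CDK6, a kinase of the D-type cyclins, was higher. Probe set 243000_at stood at -0.40, -0.24 and -0.05 in the mock arrays, 0.00, -0.33 and 0.08 in the scrambled and 0.32, 0.40 and 0.32 in the mimic arrays, so the mimic arrays lay above all 6 others. It rose by 0.43 against the scrambled control (1.35-fold, SE 0.110, adjusted p = 0.0356) and by 0.58 against mock (1.49-fold, adjusted p = 0.00659). Of the CDK6 probe sets, 2 of 7 were called higher against the scrambled control and 5 of 7 against mock. Probe set 224851_at rose by 0.36 against mock (adjusted p = 0.00124), in all 17 alternatives tried, and its log2 change against the scrambled control was 0.16 (adjusted p = 0.0857). The call of 243000_at against the scrambled control ended on omission of mock replicate 2 or scrambled replicate 1 or 2 or any 1 mimic array (adjusted p = 0.0563 to 0.112) and after quantile normalization (adjusted p = 0.0907). Probe set 224848_at rose by 0.21 against the scrambled control (adjusted p = 0.0354), a call that ended in 7 of the 9 omissions of 1 array (adjusted p = 0.0518 to 0.123), all but mock replicate 3 and scrambled replicate 2. It rose by 0.22 against mock, a call that ended on omission of mock replicate 1 or 2 or any 1 mimic array (adjusted p = 0.0541 to 0.0888). Probe sets 207143_at and 235287_at rose against mock by 0.34 and 0.58. The first of these calls ended in 7 of the 9 omissions of 1 array (adjusted p = 0.0518 to 0.132), all but mimic replicate 1 and mimic replicate 3, and the second on omission of mock replicate 1 or 2 (adjusted p = 0.0509 to 0.0518). Without mock replicate 1, or without mock replicate 2, 2 of the 5 CDK6 calls against mock remained, those of 224851_at and 243000_at.

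CDC25A, the phosphatase that activates CDK2, was called higher against mock on 3 of 3 probe sets. Probe set 1555772_a_at stood at -0.47, -0.22 and -0.28 in the mock arrays, 0.18, 0.00 and -0.03 in the scrambled and 0.20, 0.55 and 0.34 in the mimic arrays, with mock lowest and without overlap with the others. It rose by 0.68 against mock (1.61-fold, SE 0.099, adjusted p = 0.00143), in all 17 alternatives tried, and its log2 change of 0.31 against the scrambled control did not pass (adjusted p = 0.0899). Probe set 204696_s_at rose in both comparisons, by 0.30 and 0.31 (adjusted p = 0.0179 and 0.0112). The first of these calls ended on omission of scrambled replicate 1 or 2 or mimic replicate 1 or 2 (adjusted p = 0.0526 to 0.0669). Probe set 204695_at rose by 0.29 against mock, and that call ended on omission of mock replicate 2 or mimic replicate 3 (adjusted p = 0.055 to 0.0601).

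Of the G1 cyclins, CCND2, a D-type cyclin, fell on 1 of 4 probe sets. That probe set, 231259_s_at, stood at 0.02, -0.11 and 0.00 in the mock arrays, 0.14, 0.14 and 0.05 in the scrambled and -0.20, -0.27 and -0.13 in the mimic arrays. The mimic arrays lay below all 6 others, and it fell by 0.31 against the scrambled control (SE 0.061, adjusted p = 0.00996), with a log2 change of -0.17 against mock (adjusted p = 0.107). The other 3 CCND2 probe sets were at -0.17, 0.12 and 0.09 against the scrambled control. CCNE1, which encodes cyclin E1, fell by 0.24 on 213523_at (adjusted p = 0.0195), from 0.16, 0.15 and 0.13 in scrambled to -0.04, -0.14 and -0.09 in mimic arrays. That call ended on omission of any 1 scrambled array or mimic replicate 2 or 3 (adjusted p = 0.0518 to 0.0669). CCND1, the main D-type cyclin of many epithelia, had log2 changes of 0.14 and 0.04 on its probe sets, and CDK4 one of -0.09 (95% interval -0.20 to 0.01). The 7 probe sets of CCND1, CDK4, CCND3 and CCNE2 gave 0 calls in the 3 comparisons by limma.

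**Figure D3:**
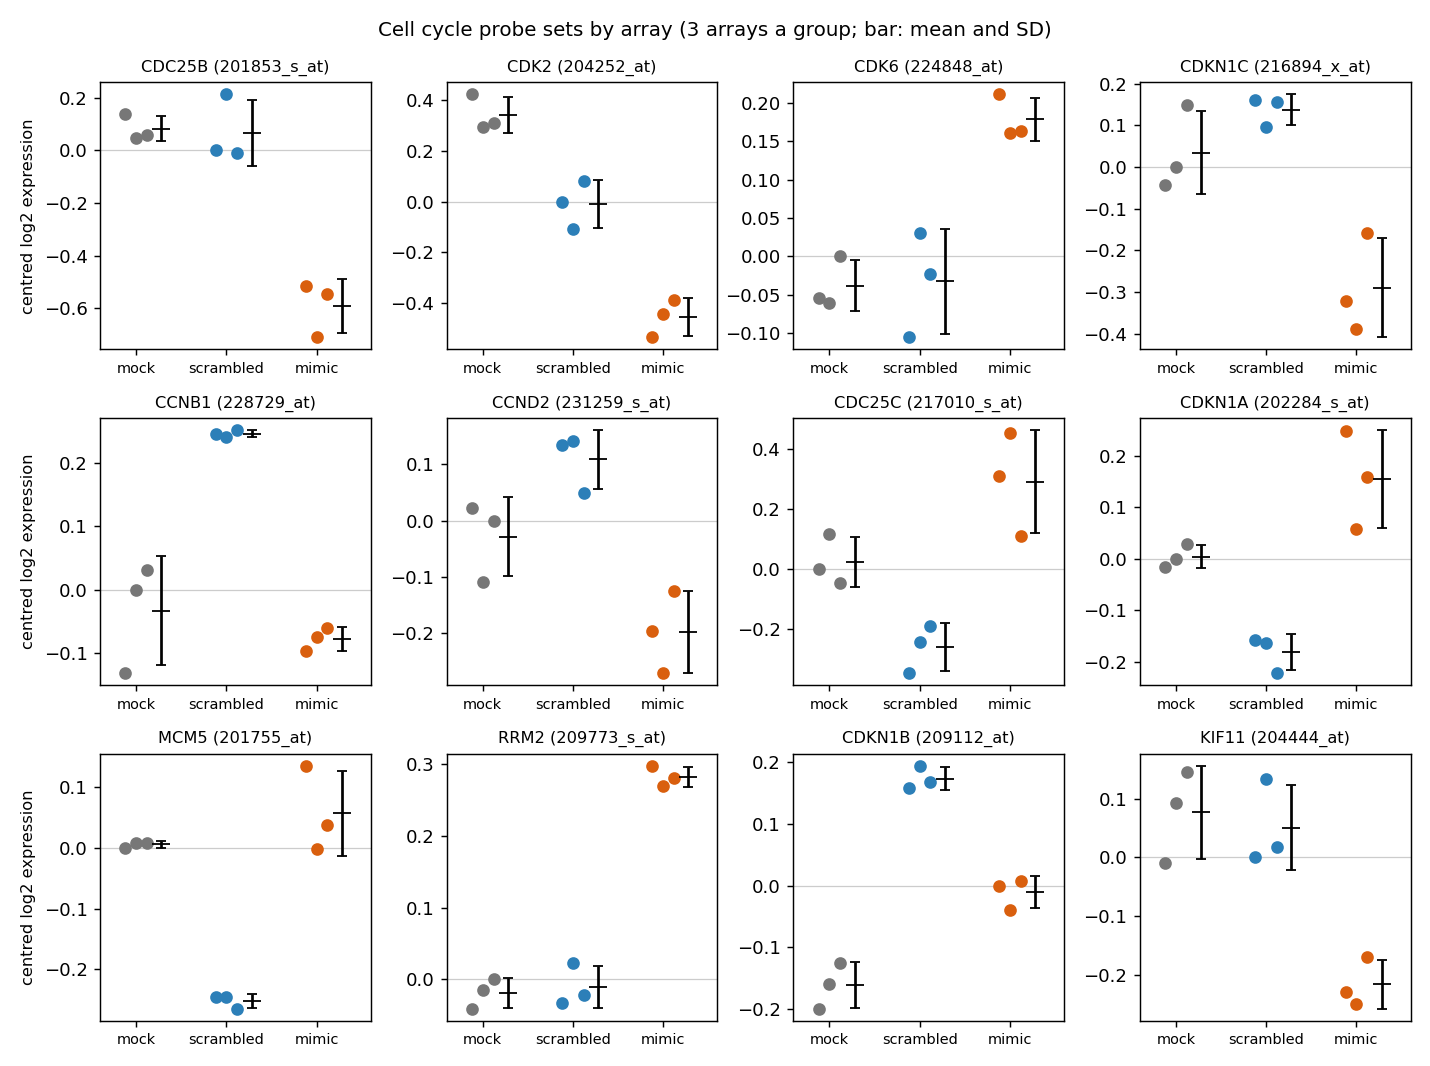
Points are the 9 arrays by group for selected probe sets, in centred log2 expression, with each group's mean and SD, and each panel has its own scale. Mimic arrays of CDC25B, at -0.52, -0.71 and -0.55, lie below all 6 others, and scrambled arrays of CCNB1, at 0.25, 0.24 and 0.25, lie above all 6 others.

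Inhibitors of the kinases were called in both directions. Against the scrambled control 1 of 14 probe sets was higher and 3 lower (28.6%, against 8.66% of all probe sets). CDKN1A, which encodes the inhibitor p21, stood at -0.02, 0.00 and 0.03 in the mock arrays, -0.16, -0.16 and -0.22 in the scrambled and 0.25, 0.06 and 0.16 in the mimic arrays. Scrambled arrays were lowest and mimic arrays highest, with no overlap. It rose by 0.33 against the scrambled control (1.26-fold, SE 0.059, adjusted p = 0.00502), in all 17 alternatives tried, and its log2 change against mock was 0.15 (adjusted p = 0.139). CDKN1B, which encodes p27, stood at -0.20, -0.16 and -0.12 in the mock arrays, 0.16, 0.19 and 0.17 in the scrambled and 0.00, -0.04 and 0.01 in the mimic arrays, highest in the scrambled arrays. With the scrambled control it rose against mock by 0.33 (SE 0.049, adjusted p = 0.00629), in all 17 alternatives tried. With the mimic it fell against the scrambled control by 0.18 (adjusted p = 0.0422), a call that ended on omission of any 1 of the 9 arrays (adjusted p = 0.0508 to 0.117). Its log2 change against mock was 0.15 (adjusted p = 0.0737).

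CDKN1C, which encodes p57, fell on 2 of 5 probe sets against the scrambled control and on 3 of 5 against mock. Probe set 216894_x_at stood at -0.04, 0.00 and 0.15 in the mock arrays, 0.16, 0.10 and 0.16 in the scrambled and -0.32, -0.39 and -0.16 in the mimic arrays, with the mimic arrays below all 6 others. It fell by 0.43 against the scrambled control (1.34-fold, SE 0.073, adjusted p = 0.00426) and by 0.32 against mock (adjusted p = 0.0154). Against mock, significance was lost on omission of mock replicate 3 or mimic replicate 2 (adjusted p = 0.0529 to 0.0597). Probe set 213182_x_at fell by 0.42 and 0.36 (adjusted p = 0.00786 and 0.0134), the second not on omission of mimic replicate 3 (adjusted p = 0.0547). Probe set 213348_at fell against mock by 0.31, a call that ended on omission of mock replicate 1 or mimic replicate 1 or 3 (adjusted p = 0.0513 to 0.0624). Affymetrix uses the mark _x for probe sets that can pair with other transcripts too. The CDKN1C probe set at a level of 8 or more, 219533_at, had log2 changes of -0.09 and -0.03 (adjusted p = 0.638 and 0.895).

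WEE1, the kinase that restrains CDK1, stood on 212533_at at -0.26, -0.21 and -0.15 in the mock arrays, 0.00, -0.13 and 0.06 in the scrambled and 0.18, 0.17 and 0.18 in the mimic arrays, highest in the mimic arrays. It rose against mock by 0.38 (1.30-fold, adjusted p = 0.00242), in all 17 alternatives tried, and its log2 change against the scrambled control was 0.20 (adjusted p = 0.0788). CDKN2A and CDKN2B, inhibitors of CDK4 and CDK6, gave 0 calls on 5 probe sets.

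RB1 and the E2F factors, which set transcription of S phase genes, gave 0 calls on 11 probe sets in each of the 3 comparisons by limma. Of all probe sets, 8.66% were called for mimic against scrambled control, 12.1% for mimic against mock and 4.07% between the controls. With 11 probe sets, 0 calls lies near these shares. At an unadjusted p under 0.05 the counts were 0 for mimic against scrambled control, 4 for mimic against mock and 2 for scrambled control against mock. Log2 changes against the scrambled control ran from -0.15 to 0.18. The upper end was E2F5 222051_s_at, at a level below 4, with 0.07, -0.03 and -0.09 in the mock arrays, 0.07, 0.00 and 0.00 in the scrambled and 0.29, 0.33 and -0.01 in the mimic arrays. Mimic replicate 3 lay apart from the other mimic arrays there, and without it the log2 change of 0.18 (adjusted p = 0.27) became 0.29 (adjusted p = 0.0324). E2F1, an activator of S phase genes, had log2 changes of -0.07 and -0.05, and E2F3 of -0.15 (95% interval -0.31 to 0.02) and -0.02.

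Origin licensing and the MCM helicase, which load and open replication origins, held 3 of 19 probe sets higher and 0 lower against the scrambled control. That was 15.8%, against 8.66% of all probe sets. MCM5, a helicase subunit, stood on 201755_at at 0.00, 0.01 and 0.01 in the mock arrays, -0.25, -0.25 and -0.27 in the scrambled and 0.14, 0.00 and 0.04 in the mimic arrays. The scrambled arrays lay below all 6 others. MCM5 rose by 0.31 against the scrambled control (1.24-fold, SE 0.052, adjusted p = 0.00401), in all 17 alternatives tried, and its log2 change against mock was 0.05 (adjusted p = 0.616). The scrambled control was lower than mock by 0.26 (adjusted p = 0.0245), a call that ended on omission of any 1 mock array or any 1 scrambled array (adjusted p = 0.062 to 0.0855). MCM5 216237_s_at rose by 0.28 against the scrambled control (adjusted p = 0.0144), and not on omission of scrambled replicate 2 (adjusted p = 0.0545).

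MCM6, another subunit, stood on 201930_at at -0.02, -0.05 and -0.06 in the mock arrays, 0.00, 0.00 and 0.03 in the scrambled and 0.19, 0.22 and 0.18 in the mimic arrays, with the mimic arrays above all 6 others. It rose by 0.24 against mock (SE 0.047, adjusted p = 0.00782), in all 17 alternatives tried. Against the scrambled control it rose by 0.19 (adjusted p = 0.0331), a call that ended in 7 of the 9 omissions of 1 array (adjusted p = 0.0583 to 0.0933), all but mock replicate 1 and mock replicate 3. MCM6 238977_at rose by 0.30 against mock (adjusted p = 0.00942), with a log2 change of 0.18 against the scrambled control.

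CDT1, which loads the helicase, had probe sets that opposed each other in the comparisons with mock. For the mimic against the scrambled control their log2 changes were alike, 0.13 on 209832_s_at and 0.14 on 228868_x_at (adjusted p = 0.382 and 0.253). Probe set 209832_s_at stood at 0.20, 0.27 and 0.42 in the mock arrays, -0.11, -0.17 and 0.00 in the scrambled and 0.14, -0.04 and 0.00 in the mimic arrays, with mock above all 6 others. It fell with the scrambled control against mock by 0.39 (adjusted p = 0.0213), a call that ended on omission of mock replicate 2 or 3 or scrambled replicate 1 or 2 (adjusted p = 0.062 to 0.0705). With the mimic it fell against mock by 0.26 (adjusted p = 0.049), and that ended in 7 of the 9 omissions of 1 array (adjusted p = 0.0525 to 0.153), all but mock replicate 1 and mimic replicate 1. In the same comparison 228868_x_at rose by 0.24 (adjusted p = 0.0376), and that ended in 7 of the 9 omissions of 1 array (adjusted p = 0.0551 to 0.121), all but scrambled replicate 2 and mimic replicate 1. The mean of both probe sets was -0.01 against mock. GMNN, the inhibitor of CDT1, rose against mock by 0.17 (adjusted p = 0.0494), a call that ended on omission of any 1 of the 9 arrays (adjusted p = 0.0601 to 0.147). ORC1, CDC6, MCM2, MCM3, MCM4 and MCM7, on 12 probe sets, gave 0 calls in the 3 comparisons.

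Enzymes of DNA synthesis held 1 call on 11 probe sets in each comparison of the mimic. That was 9.09%, against 8.66% of all probe sets for the scrambled control and 12.1% for mock. RRM2, the small subunit of ribonucleotide reductase, stood on 209773_s_at at -0.04, -0.01 and 0.00 in the mock arrays, -0.03, 0.02 and -0.02 in the scrambled and 0.30, 0.27 and 0.28 in the mimic arrays. The controls lay together and the mimic arrays above both. It rose by 0.29 against the scrambled control (1.23-fold, SE 0.048, adjusted p = 0.00314), in all 17 alternatives tried, and by 0.30 against mock (adjusted p = 0.00235). The other RRM2 probe set, 201890_at, had log2 changes of 0.06 and -0.05, and the mean of both was 0.12 against mock (adjusted p = 0.0592). PCNA, the sliding clamp, had a log2 change of 0.07 against the scrambled control (95% interval -0.04 to 0.18). RRM1, TYMS, PCNA and TOP2A gave 0 calls on 9 probe sets.

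Of the cyclins, kinase and phosphatases of G2 and mitosis, 1 of 15 probe sets was higher and 2 lower against the scrambled control. That was 20%, against 8.66% of all probe sets. CDC25B, a phosphatase that activates CDK1 at mitotic entry, had the largest change of the members in that comparison. Its probe set, 201853_s_at, stood at 0.14, 0.05 and 0.06 in the mock arrays, 0.00, 0.21 and -0.01 in the scrambled and -0.52, -0.71 and -0.55 in the mimic arrays. The controls overlapped and the mimic arrays lay below all of them. CDC25B fell by 0.66 against the scrambled control (1.58-fold, SE 0.076, adjusted p = 0.000366) and by 0.67 against mock (1.59-fold, adjusted p = 0.000298), both in all 17 alternatives tried.

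CDC25C, a related phosphatase, rose on 1 of 3 probe sets. That probe set, 217010_s_at, stood at 0.00, 0.12 and -0.05 in the mock arrays, -0.35, -0.24 and -0.19 in the scrambled and 0.31, 0.45 and 0.11 in the mimic arrays, with scrambled arrays lowest and mock and mimic overlapping. It rose by 0.55 against the scrambled control (1.46-fold, SE 0.086, adjusted p = 0.00259), and its log2 change against mock was 0.27 (adjusted p = 0.0734). The CDC25C probe set at a level of 8 or more, 205167_s_at, had a log2 change of 0.14 (adjusted p = 0.226). CCNB1, which encodes cyclin B1, stood on 228729_at at -0.13, 0.00 and 0.03 in the mock arrays, 0.25, 0.24 and 0.25 in the scrambled and -0.10, -0.07 and -0.06 in the mimic arrays. The scrambled arrays lay above all 6 others, and mock and mimic overlapped. CCNB1 fell by 0.32 with the mimic against the scrambled control (1.25-fold, SE 0.055, adjusted p = 0.00429), in all 17 alternatives tried, and its log2 change against mock was -0.04 (adjusted p = 0.688). The scrambled control rose against mock by 0.28 (adjusted p = 0.0225), a call that ended on omission of mock replicate 1 or 2 or any 1 scrambled array (adjusted p = 0.0591 to 0.0728). CCNB1 214710_s_at had a log2 change of -0.11 against the scrambled control (adjusted p = 0.229).

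CDK1, the mitotic kinase itself, rose against mock on 2 of 4 probe sets. On 203213_at it stood at -0.16, -0.10 and -0.09 in the mock arrays, 0.00, 0.04 and 0.00 in the scrambled and 0.08, 0.12 and 0.11 in the mimic arrays, lowest in mock and highest in mimic arrays, with no overlap. It rose there by 0.22 (adjusted p = 0.0147), a call that ended on omission of mock replicate 1 (adjusted p = 0.0579), and by 0.40 on 231534_at (adjusted p = 0.0197), a call that ended on omission of mock replicate 1 or 3 or mimic replicate 1 or 2 (adjusted p = 0.0555 to 0.0751). Against the scrambled control the log2 changes were 0.09 and 0.21. CCNA2 and CCNB2, cyclins of S phase and mitosis, gave 0 calls on 5 probe sets.

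**Figure D4:**
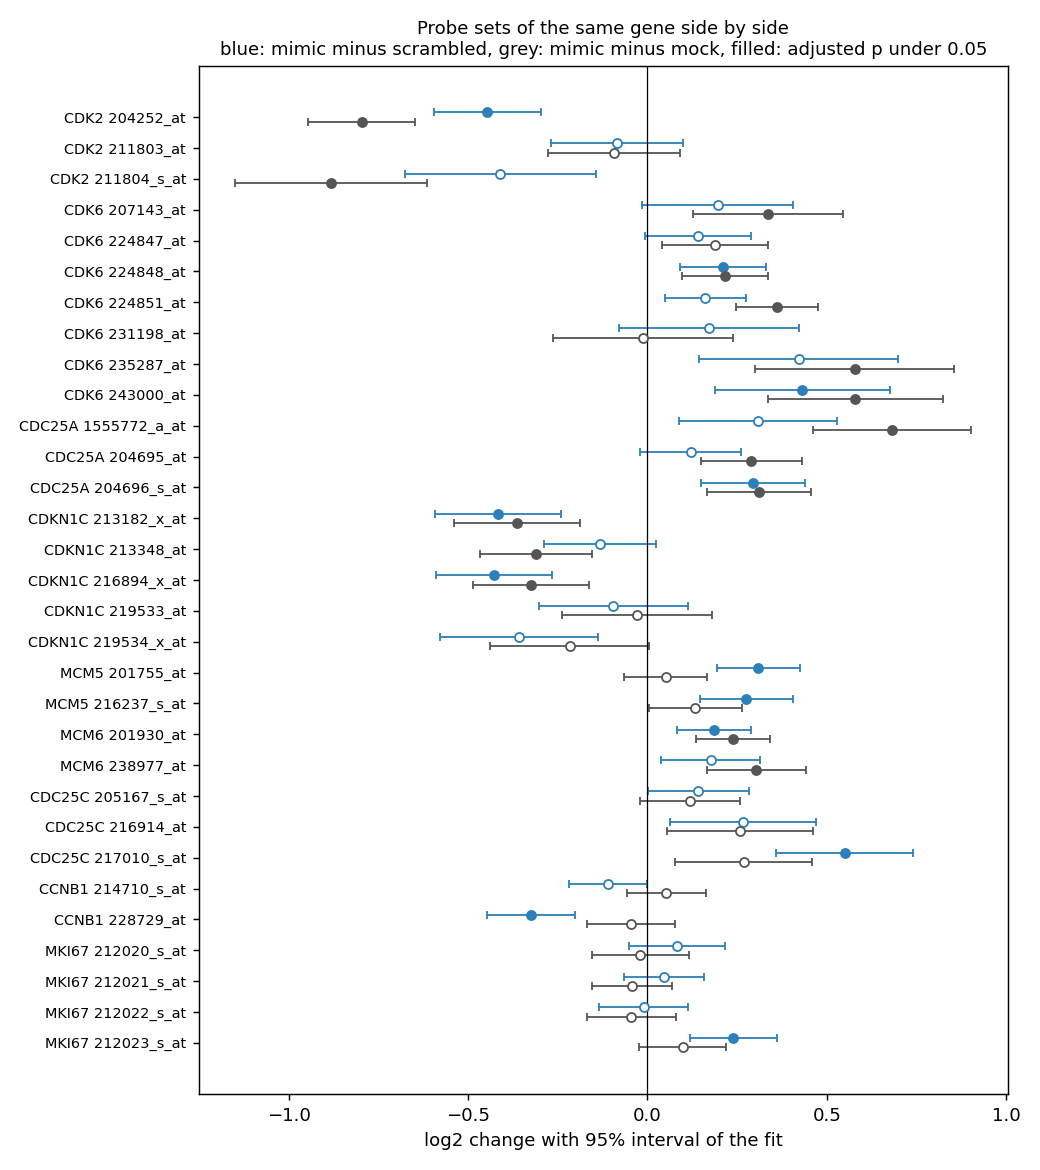
Rows are the probe sets of genes with several, with the log2 change and its 95% interval for mimic minus scrambled control and mimic minus mock; filled points had an adjusted p under 0.05. CDK2 211803_at lies at -0.09 for mimic minus scrambled control, beside 204252_at at -0.45.

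Mitotic kinases, checkpoint genes and drivers held 2 of 25 probe sets higher and 0 lower against the scrambled control. That was 8%, near the 8.66% of all probe sets. MKI67, the Ki-67 gene that marks cycling cells, stood on 212023_s_at at 0.00, 0.00 and 0.07 in the mock arrays, -0.04, -0.13 and -0.19 in the scrambled and 0.14, 0.10 and 0.12 in the mimic arrays, with no overlap of mimic and scrambled arrays. It rose by 0.24 (adjusted p = 0.0209), a call that ended on omission of scrambled replicate 2 or 3 or mimic replicate 1 or 3 (adjusted p = 0.06 to 0.0788). The other MKI67 probe sets, at a level of 8 or more, had log2 changes of 0.08, 0.05 and -0.01. BIRC5, which encodes survivin, rose by 0.22 on 1 of 4 probe sets (adjusted p = 0.0429), a call that ended in 8 of the 9 omissions of 1 array (adjusted p = 0.0578 to 0.127), all but mimic replicate 2. Its other probe sets did not pass, with log2 changes down to -0.16. The mean of all 4 was 0.06 (adjusted p = 0.419).

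PLK1, a kinase of mitotic entry, stood at 0.17, 0.25 and 0.30 in the mock arrays, -0.04, -0.10 and -0.03 in the scrambled and 0.00, 0.01 and -0.13 in the mimic arrays, highest in mock. It fell against mock by 0.28 with the mimic (1.22-fold, adjusted p = 0.0114), in all 17 alternatives tried. With the scrambled control it fell by 0.29 (adjusted p = 0.0248), a call that ended on omission of mock replicate 2 or 3 or any 1 scrambled array (adjusted p = 0.0618 to 0.0864). Mimic and scrambled control differed on PLK1 by 0.01 (95% interval -0.12 to 0.14). BUB1, a checkpoint kinase, rose against mock by 0.18 on 1 of 5 probe sets (adjusted p = 0.0449), a call that ended in 8 of the 9 omissions of 1 array (adjusted p = 0.052 to 0.127), all but scrambled replicate 3. AURKA, AURKB, BUB1B, MAD2L1, TTK and FOXM1 gave 0 calls on 11 probe sets. FOXM1, a transcription factor of G2 and mitosis genes, had a log2 change of -0.01 against the scrambled control (95% interval -0.16 to 0.13).

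Centromere proteins and mitotic kinesins, which attach and move chromosomes, held 0 higher and 2 lower of 8 probe sets against the scrambled control. That was 25%, against 8.66% of all probe sets. KIF11, the kinesin that separates the spindle poles, stood at -0.01, 0.09 and 0.15 in the mock arrays, 0.00, 0.13 and 0.02 in the scrambled and -0.23, -0.25 and -0.17 in the mimic arrays. The mimic arrays lay below all 6 others. KIF11 fell by 0.27 against the scrambled control (SE 0.061, adjusted p = 0.0213) and by 0.29 against mock (adjusted p = 0.0109), the second in all 17 alternatives tried. The first call ended on omission of scrambled replicate 2 or mimic replicate 1 or 2 (adjusted p = 0.0623 to 0.0792). CENPF, a kinetochore protein, stood on 209172_s_at at -0.05, 0.04 and -0.01 in the mock arrays, 0.19, 0.17 and 0.30 in the scrambled and -0.07, 0.00 and -0.08 in the mimic arrays, highest in the scrambled arrays. It fell by 0.27 with the mimic against the scrambled control (adjusted p = 0.0136), a call that ended on omission of scrambled replicate 3 or mimic replicate 3 (adjusted p = 0.0521 to 0.0538), and its log2 change against mock was -0.04. CENPE, a kinetochore motor, fell against mock by 0.25 (adjusted p = 0.0172), a call that ended on omission of mock replicate 1 or 2 or mimic replicate 2 or 3 (adjusted p = 0.0549 to 0.0628). CENPA and KIF23 gave 0 calls on 3 probe sets.

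The place of each group among the 9 arrays varied between members. The 3 mimic arrays lay above all 6 others in 24 member probe sets (18.6%, against 6.73% of all probe sets) and below them in 14 (10.9%, against 7.14%). At a level of 8 or more these shares were 18.3% against 11.5%, and 11% against 14%. Mock arrays were the lowest 3 in 21 (16.3%, against 5.09%), and at a level of 8 or more in 20.7% against 8.81%. They were the highest 3 in 11 (8.53%, against 6.61%), and at that level in 7.32% against 13.2%. Scrambled arrays were the highest 3 in 7 (5.43%, against 4.17%) and the lowest 3 in 7 (5.43%, against 4.21%), and at that level in 7.32% against 7.55% and 4.88% against 8.27%. Of the 11 probe sets called higher against the scrambled control, the scrambled arrays were the lowest 3 in 6, of CDKN1A, MCM5, CDC25C, BIRC5 and MKI67. Of the 10 called lower, the scrambled arrays were the highest 3 in 5, of CCND2, CCNE1, CDKN1B, CCNB1 and CENPF. These probe sets were picked for a difference from the scrambled arrays, which favours such separation. The share over all called probe sets was not computed, so these counts only describe the members. CDK2, CDC25B, CDKN1C and KIF11 had a probe set called lower against both controls, and CDK6, CDC25A, MCM6 and RRM2 one called higher against both. How many of all probe sets were called against both was not counted. Both comparisons use the same mimic arrays, which favours such joint calls, so this list only describes the members.

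Promoters of cell cycle genes often hold E2F elements, bound by E2F factors, or CHR elements, common in genes expressed late in the cycle. RefSeq promoters (GRCh38.p14, 300 bases, from 250 before to 50 after the gene's start) were at hand for 43 of the 56 genes, and both strands were searched, beside 27305 promoters in all. An E2F motif (TTTCCCGC, TTTGGCGC, TTTCGCGC or TTTGCCGC) stood in 14 of them (32.6%, against 3.33% of all), a CHR motif (TTTGAA or TTCGAA) in 15 of them (34.9%, against 16.6% of all) and CCAAT in 26 of them (60.5%, against 35.7% of all). CAGGTG, an E-box of the kind ZEB factors bind, stood in 8 of them (18.6%, against 20.6% of all). E2F motifs stood in 6 of 8 licensing and MCM promoters, and CHR motifs in 4 of 5 promoters of centromere and kinesin genes and 5 of 6 of mitotic kinases, checkpoint genes and drivers. Probe sets of genes with an E2F motif had 2 higher and 0 lower (median log2 change 0.07) of 29 against the scrambled control, where all probe sets stood at 4.52% higher and 4.15% lower. Those with a CHR motif had 2 higher and 2 lower (median log2 change 0.02) of 37, those with neither 5 higher and 4 lower (median log2 change 0.07) of 36 and those with no promoter at hand 3 higher and 4 lower (median log2 change 0.06) of 36, and 4 genes had both motifs. Against mock, where all probe sets stood at 5.07% higher and 6.98% lower, the same sets had 8 higher and 1 lower (median log2 change 0.05), 5 higher and 2 lower (median log2 change 0.00), 7 higher and 2 lower (median log2 change 0.04) and 1 higher and 5 lower (median log2 change 0.03). A match is a description of the letters and no test of binding.

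The 250 bases before the gene's start are shown for all genes with a promoter at hand and a probe set called the same way against both controls, CDC25B and KIF11 (lower) and CDK6, CDC25A, RRM2 and MCM6 (higher), to set their motifs side by side. They run 5′ to 3′ along the gene, with E2F, CHR and CCAAT motifs in capitals. CDC25B lies at chr20:3786701-3786950 on the plus strand, KIF11 at chr10:92592880-92593129 on the plus strand, CDK6 at chr7:92836574-92836823 on the minus strand, CDC25A at chr3:48188418-48188667 on the minus strand, RRM2 at chr2:10122489-10122738 on the plus strand and MCM6 at chr2:135876444-135876693 on the minus strand.
CDC25B: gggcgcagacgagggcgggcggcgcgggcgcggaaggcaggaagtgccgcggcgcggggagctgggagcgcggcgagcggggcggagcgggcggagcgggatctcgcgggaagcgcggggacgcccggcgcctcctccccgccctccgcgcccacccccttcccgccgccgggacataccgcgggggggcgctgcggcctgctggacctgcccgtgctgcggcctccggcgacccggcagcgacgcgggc
KIF11: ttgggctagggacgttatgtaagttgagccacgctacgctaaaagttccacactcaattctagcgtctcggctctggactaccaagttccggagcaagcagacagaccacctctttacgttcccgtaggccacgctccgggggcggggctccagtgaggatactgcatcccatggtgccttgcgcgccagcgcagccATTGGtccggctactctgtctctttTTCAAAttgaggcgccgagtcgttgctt
CDK6: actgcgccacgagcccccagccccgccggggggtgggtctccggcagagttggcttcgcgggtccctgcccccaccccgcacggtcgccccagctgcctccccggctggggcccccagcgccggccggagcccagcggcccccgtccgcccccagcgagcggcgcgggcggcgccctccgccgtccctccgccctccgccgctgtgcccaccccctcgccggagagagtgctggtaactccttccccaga
CDC25A: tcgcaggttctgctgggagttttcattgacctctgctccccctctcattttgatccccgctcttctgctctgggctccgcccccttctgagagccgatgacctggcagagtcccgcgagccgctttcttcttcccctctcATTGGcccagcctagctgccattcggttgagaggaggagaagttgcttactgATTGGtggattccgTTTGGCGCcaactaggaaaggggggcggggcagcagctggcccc
RRM2: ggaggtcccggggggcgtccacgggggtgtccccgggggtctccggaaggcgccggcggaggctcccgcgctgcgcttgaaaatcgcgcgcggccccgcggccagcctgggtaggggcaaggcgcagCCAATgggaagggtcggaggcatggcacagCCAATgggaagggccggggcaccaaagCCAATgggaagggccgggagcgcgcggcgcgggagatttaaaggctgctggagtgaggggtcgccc
MCM6: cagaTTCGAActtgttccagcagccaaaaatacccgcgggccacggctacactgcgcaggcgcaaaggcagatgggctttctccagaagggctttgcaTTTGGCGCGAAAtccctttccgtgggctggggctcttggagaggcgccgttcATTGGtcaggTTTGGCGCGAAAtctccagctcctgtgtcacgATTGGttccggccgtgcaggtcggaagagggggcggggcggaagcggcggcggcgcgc
KIF11 holds 1 CHR motif and 1 CCAAT, CDC25A holds 1 E2F motif and 2 CCAAT, and RRM2 holds 3 CCAAT. MCM6 holds 4 E2F matches, which overlap in pairs within 2 runs, with 1 CHR motif and 2 CCAAT. The printed stretches of CDC25B and CDK6 hold none of the 3 motifs.

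Other genes of the pathway were taken from lists by role. Of 76 probe sets of 40 replication fork genes, 1 was higher and 5 lower against the scrambled control (7.89%, against 8.66% of all probe sets, median log2 change 0.01). MCM10, a replication initiation factor, fell on 3 probe sets, by 0.48, 0.35 and 0.19 (adjusted p = 0.000589, 0.00818 and 0.0451), and POLD3, a subunit of polymerase delta, rose by 0.38 (adjusted p = 0.00082). Of 95 probe sets of 53 mitosis genes, 5 were higher and 2 lower (7.37%), and HMMR, a spindle protein, rose by 0.27 and 0.30. Of 37 probe sets of 15 other RB, E2F and DREAM genes, 1 was higher and 1 lower (5.41%). RBL1, which encodes the RB relative p107, stood on 205296_at at 0.00, -0.05 and 0.00 in the mock arrays, 0.13, 0.25 and 0.21 in the scrambled and -0.62, -0.38 and -0.35 in the mimic arrays. It fell by 0.65 against the scrambled control (SE 0.075, adjusted p = 0.000371) and by 0.43 against mock (adjusted p = 0.00368), while its other 3 probe sets did not pass. Against mock these lists held 4 higher and 8 lower (15.8%), 6 higher and 6 lower (12.6%) and 2 higher and 3 lower (13.5%), against 12.1% of all probe sets.

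Of 51 probe sets of 18 other brakes and kinases of the cycle, 5 were higher and 6 lower against the scrambled control (21.6%, against 8.66% of all probe sets, 4.52% higher and 4.15% lower). The list also holds the growth drivers MYC and MYCN, and MYC was among the genes called lower against the scrambled control. CCNG2, an atypical cyclin linked to arrest, stood on 202769_at at -0.13, 0.06 and 0.00 in the mock arrays, 0.07, 0.17 and 0.03 in the scrambled and -0.64, -0.63 and -0.73 in the mimic arrays, with the mimic arrays lowest. It fell there by 0.76 (1.69-fold, adjusted p = 6.16e-05), and by 0.83 and 0.61 on 202770_s_at and 211559_s_at, while 228081_at and 1555056_at were at -0.27 and 0.15 and did not pass. TOB1, an antiproliferative protein, fell by 0.64 and 0.53 (adjusted p = 0.000144 and 0.00142). KLF4, a transcription factor that restrains growth in epithelia, rose by 0.70 and 0.44 (adjusted p = 0.000502 and 0.0208). Of 49 probe sets of 20 p53 target genes beside CDKN1A, 2 were higher and 2 lower (8.16%, median log2 change 0.03), with RRM2B, the relative of RRM2 that p53 induces, higher by 0.22 and SESN1, a stress response gene, lower by 0.58. Of 41 probe sets of 18 DNA damage checkpoint genes, 2 were higher and 3 lower (12.2%), among them the checkpoint kinase gene ATR, which fell by 0.26 (adjusted p = 0.0168). Against mock these 3 lists held 5 higher and 8 lower (25.5%), 4 higher and 7 lower (22.4%) and 4 higher and 3 lower (17.1%), against 12.1% of all probe sets, 5.07% higher and 6.98% lower. At a level of 8 or more, 15.8% of all probe sets were called against the scrambled control and 21.6% against mock. The lists were not split by level.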

How the data were processed

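Total RNA of the 9 samples was hybridised to Affymetrix arrays with 54675 probe sets. The authors deposited log2 expression values, taken as log2 from their range; per the file headers and labels the log base and the normalization are not stated. The median of every probe set over the 9 arrays is 0, so the values are centred. After leaving out 62 control probe sets, limma 3.58.1 in R 4.3.3 (lmFit, eBayes, two-sided) was fitted to 54613 over all 9 arrays, with Benjamini-Hochberg adjustment and calls at 0.05, without a filter. The scripts were tested on simulated data. Symbols came from the platform's annotation (41091 probe sets with 1 symbol, 1801 with several, 11721 with none), and 129 of 129 member probe sets matched the GRCh38.p14 gene table. Members, lists and tests were chosen with earlier results of these data known. Values in every array were planned for genes called against the scrambled control with a log2 change of at least 0.3, for the smallest p of each role and for the 4 smallest p of each comparison with mock; further genes were added after their values were seen. Alternatives were quantile normalization, filters on level, 1 value a gene, a replicate block, fewer groups, robust variance and leaving out each array. No group of 3 arrays was tested for outliers.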

Additional observations from a re-analysis of the deposited data

How the results depend on the processing

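Of the member calls, 6 of 21 against the scrambled control, 12 of 27 against mock and 1 of 6 between the controls passed under every alternative that gave a value. Leaving out 1 array gave 5 to 11 members higher and 7 to 10 lower with the mimic against the scrambled control, 9 to 15 and 6 to 9 against mock, and 1 to 3 and 0 to 4 for scrambled control against mock. Over all probe sets these omissions gave 1761 to 2347 and 1574 to 2147, 1727 to 2762 and 2572 to 3837, and 155 to 565 and 577 to 1494. With 1 value a gene (the mean of its probe sets in its highest level class, or the mean of all), fewer values were tested. Over all genes 1486 and 1354 were then higher and 1362 and 1146 lower against the scrambled control. Against mock these were 1638 and 1488 higher and 2013 and 1844 lower, and between the controls 397 higher by the mean and 1012 and 898 lower. Of the 56 member genes, 6 and 7 were then higher and 8 and 7 lower against the scrambled control. That was 25% by either choice, against 14.4% and 12.6% of all genes. Against mock 11 and 9 were higher and 5 and 6 lower, 28.6% and 26.8%, against 18.5% and 16.8% of all genes. These shares were not split by level. Among values that passed the test with or without this choice, directions turned with 1 value a gene for CDT1 209832_s_at (highest class, 0.24 against mock and 0.10 for scrambled control against mock), CDT1 228868_x_at (mean, -0.0083 against mock) and CDK6 231198_at (0.26 and 0.32 against mock), since other probe sets then give the value. Values that passed in neither setting also changed sign, those of CCND2 probe sets among them. For scrambled control against mock, members higher were 4 after quantile normalization, 4 at a level of 4 or more, 9 at 8 or more and 1 with the 2 groups alone, and members lower were 7 at 8 or more. Members called either way were 6.2%, 7.44%, 19.5% and 3.88% in these 4 settings. Of all probe sets tested in each, 5.55%, 5.97%, 22.7% and 2.58% were called. Over all probe sets in that comparison 1309 were higher at 8 or more and 326 with the 2 groups alone. The cause of these shifts was not tested.

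With the replicate number as a block, members were 8 higher and 9 lower, 12 higher and 9 lower, and 2 higher and 2 lower in the 3 comparisons. Called members made up 13.2%, 16.3% and 3.1%, against 7.22%, 10.3% and 2.5% of all probe sets. Over all probe sets 352 were higher and 1014 lower for scrambled control against mock. Deviations from the group mean of arrays with the same number correlated at -0.24 to 0.15, above 0.1 in 1 of 9 pairs. Those of arrays with other numbers correlated at -0.22 to 0.36. With 3 arrays a group, these values cannot show whether arrays of the same number were handled together. The labels give only the number, and no pairing was assumed. The 3 arrays a group limit the precision.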
